A study of Mus musculus with 12 samples.

Results

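The 39 Hox genes of the mouse were followed here across primary and metastatic medulloblastomas of the Sonic hedgehog (SHH) subgroup. They were found by the array's own gene symbols (Hox, a cluster letter from a to d, and a paralog number), which gave 57 of 45281 probes. The Hoxa cluster (chromosome 6) had 20 probes for 11 genes, Hoxb (chromosome 11) 15 for 10, Hoxc (chromosome 15) 11 for 9 and Hoxd (chromosome 2) 11 for 9. RNA of 12 tumours was read on Illumina BeadChips, in 3 groups of 4 arrays. A1G primary and A1G metastatic tumours came from mice of genotype Math1-cre;A1G;Ptch1+/-, and Ptch1het tumours from Ptch1+/- mice, so all 3 groups were heterozygous for Ptch1, the receptor that holds SHH signalling back. Math1 is the older name of Atoh1, and Math1-cre acts in granule neuron progenitors. The labels do not expand A1G, and they give no age, no strain, no site for the metastases and no statement that replicates are separate animals, so p-values measure the spread between these samples. The genotype entry of metastatic replicates 2 and 3 is worded differently from that of replicates 1 and 4.

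Hox genes encode homeodomain transcription factors that set the position of cells along the head-to-tail axis. They lie in clusters, and within a cluster low-numbered genes come on early and far forward in the embryo while high-numbered genes come on late and towards the tail, an order called colinearity. The cerebellum, where SHH medulloblastoma starts from granule neuron progenitors, forms from the foremost segment of the hindbrain, ahead of the domain of Hox expression. Spinal cord, dorsal root ganglia, muscle and connective tissue of the trunk keep a Hox pattern typical of their level into adult life.

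Values are log2 intensities after background correction and quantile normalization, and each group value is the mean ± SD over n = 4 arrays. A probe was taken as above background on an array where it exceeded the 95th percentile of 1491 olfactory and vomeronasal receptor probes, which lay between 7.08 and 7.39 (log2) over the arrays, whose common median was 7.05. Differences are from limma fitted to all 45281 probes; a call means a p under 0.05 after Benjamini-Hochberg adjustment over all of them. A fold is written "at least" where the dimmer group was above background on 0 of 4 arrays, its mean then being replaced by the background threshold. Of 11 genes of the granule neuron lineage, Zic1 read 13.17 to 14.27 and Barhl1 11.83 to 12.91 over the 12 arrays, while the probes of Atoh1, Gli1 and Mycn were above background on none. The arrays filled 2 chips; no source used here says which tumours shared one, so the part of the chip in any result was not tested. In bulk tumour RNA, fewer cells of a type and less RNA per cell cannot be told apart.

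The RefSeq promoter table (GRCm38.p6) held 24 promoters for 22 of the 39 Hox genes, 7 of them for genes that were higher in metastatic tumours below. The 5 shown are the 250 bases before the transcription start of Hoxa5, Hoxa7, Hoxd4 and Hoxd8, which were among the strongest of the Hoxa and Hoxd clusters in the metastases, and of Hoxd10, which split the metastases most. Hoxa5 is chr6:52204588-52204837 and Hoxa7 chr6:52218574-52218823 (minus strand); Hoxd4 is chr2:74721728-74721977, Hoxd8 chr2:74704365-74704614 and Hoxd10 chr2:74691641-74691890 (plus strand). Capitals mark CCAAT (the CCAAT box), TATAAA (the TATA box), TTTATNG (a motif of Cdx factors) and TGATNNAT (a motif of Pbx with Hox proteins), on either strand, where N is any base; the TATA and Cdx letters can overlap.
Hoxa5: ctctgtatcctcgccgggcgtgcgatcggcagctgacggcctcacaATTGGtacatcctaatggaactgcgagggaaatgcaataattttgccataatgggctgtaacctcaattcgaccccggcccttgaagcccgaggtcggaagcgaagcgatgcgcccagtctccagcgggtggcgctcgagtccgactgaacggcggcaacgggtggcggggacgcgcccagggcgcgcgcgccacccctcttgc
Hoxa7: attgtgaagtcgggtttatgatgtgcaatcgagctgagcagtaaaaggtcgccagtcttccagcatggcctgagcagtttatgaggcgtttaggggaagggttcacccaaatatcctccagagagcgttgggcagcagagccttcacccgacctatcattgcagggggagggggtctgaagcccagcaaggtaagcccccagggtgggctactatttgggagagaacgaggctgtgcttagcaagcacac
Hoxd4: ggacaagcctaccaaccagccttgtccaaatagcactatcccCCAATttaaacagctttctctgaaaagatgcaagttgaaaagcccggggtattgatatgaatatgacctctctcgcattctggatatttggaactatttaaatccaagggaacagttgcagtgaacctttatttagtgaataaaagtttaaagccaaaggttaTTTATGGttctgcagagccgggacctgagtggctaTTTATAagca
Hoxd8: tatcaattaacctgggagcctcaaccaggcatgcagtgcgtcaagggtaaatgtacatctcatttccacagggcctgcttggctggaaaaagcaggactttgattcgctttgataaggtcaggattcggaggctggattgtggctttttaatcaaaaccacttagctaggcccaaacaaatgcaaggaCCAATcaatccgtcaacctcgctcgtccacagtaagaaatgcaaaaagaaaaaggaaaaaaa
Hoxd10: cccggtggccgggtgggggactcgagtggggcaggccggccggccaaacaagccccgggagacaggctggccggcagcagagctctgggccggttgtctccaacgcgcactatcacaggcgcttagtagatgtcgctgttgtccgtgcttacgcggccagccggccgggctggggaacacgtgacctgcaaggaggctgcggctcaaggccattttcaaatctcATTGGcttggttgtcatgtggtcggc
CCAAT was in 4 of these 5 windows, all but that of Hoxa7. The window of Hoxd4 also held the Cdx motif, at bases 206 to 212. It held the TATAAA letters on the opposite strand, at bases 241 to 246 of 250. Over the 24 Hox promoters CCAAT was in 58.3%, against 33.8% of the 32851 mouse promoters of the table. The Cdx motif was in 2 Hox promoters (8.33%, against 9.81% of all) and the TATA box in 4 (16.7%, against 12.4%). The Pbx and Hox motif was in 4 of the 24 (16.7%, against 7.68% of all promoters). Hox promoters had a median GC content of 58.6% against 52.4%, and a median of 12.5 CpG dinucleotides against 6. The 7 promoters of genes higher in metastatic tumours were all from Hoxa and Hoxd, as no called Hoxb or Hoxc gene had a promoter here. They held a median of 7 CpG, and the other 17 Hox promoters, from all 4 clusters, 14. The window of Hoxa5 held 28 CpG and that of Hoxd4 3. These letters describe the windows only, and no test was made of them.

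In metastatic against primary A1G tumours, 15 of the 57 Hox probes, for 13 of the 39 genes, were higher and 0 were lower (limma, adjusted p under 0.05). Over all probes 2.27% were higher and 0.38% lower. Without adjustment, 23 Hox probes were higher and 3 lower at p under 0.05, against 6.64% and 6.79% of all probes, so the lower ones were near the share over all probes. Every array of one group lay above every array of the other in 19 Hox probes with metastatic tumours higher (4.69% of all probes) and in 2 with them lower (4.55% of all). The median log2 difference was 0.15 over the 57 Hox probes and -0.04 over all probes. The 15 probes were Hoxa5, Hoxa7, Hoxa9 probes 1 and 2, Hoxb5, Hoxb6, both probes of Hoxb7, Hoxc6, Hoxc9, Hoxc10 probe 2, Hoxd3, Hoxd4, Hoxd8 and Hoxd9 probe 1. All 4 clusters had members among them: 4 of 20 probes of Hoxa, 4 of 15 of Hoxb, 3 of 11 of Hoxc and 4 of 11 of Hoxd.

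The number of Hox probes above background, drawn from the same values, also differed between the groups. The threshold differed too: it was 7.08 to 7.19 on metastatic, 7.18 to 7.27 on A1G primary and 7.23 to 7.39 on Ptch1het arrays. On all 4 arrays of a group, 15 Hox probes were above background in metastatic tumours (26.3%, against 41.4% of all probes), 2 in A1G primary (3.51%, against 39.3%) and 2 in Ptch1het tumours (3.51%, against 36.7%). On 0 of 4 arrays were 26 Hox probes in metastatic (44.2% of all probes), 47 in A1G primary (48.3% of all) and 43 in Ptch1het tumours (49% of all). Above background on all 4 metastatic arrays and on 0 of the 8 others were 10 Hox probes for 9 genes: Hoxa5, Hoxa7, both probes of Hoxb7, Hoxb5, Hoxc6, Hoxc9, Hoxc10 probe 2, Hoxd8 and Hoxd9 probe 1. Of all probes, 0.464% met that description. The 2 probes above background on all 12 arrays were Hoxa4 and Hoxa13 probe 3, and 23 Hox probes were above background on none.

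**Figure D1:**
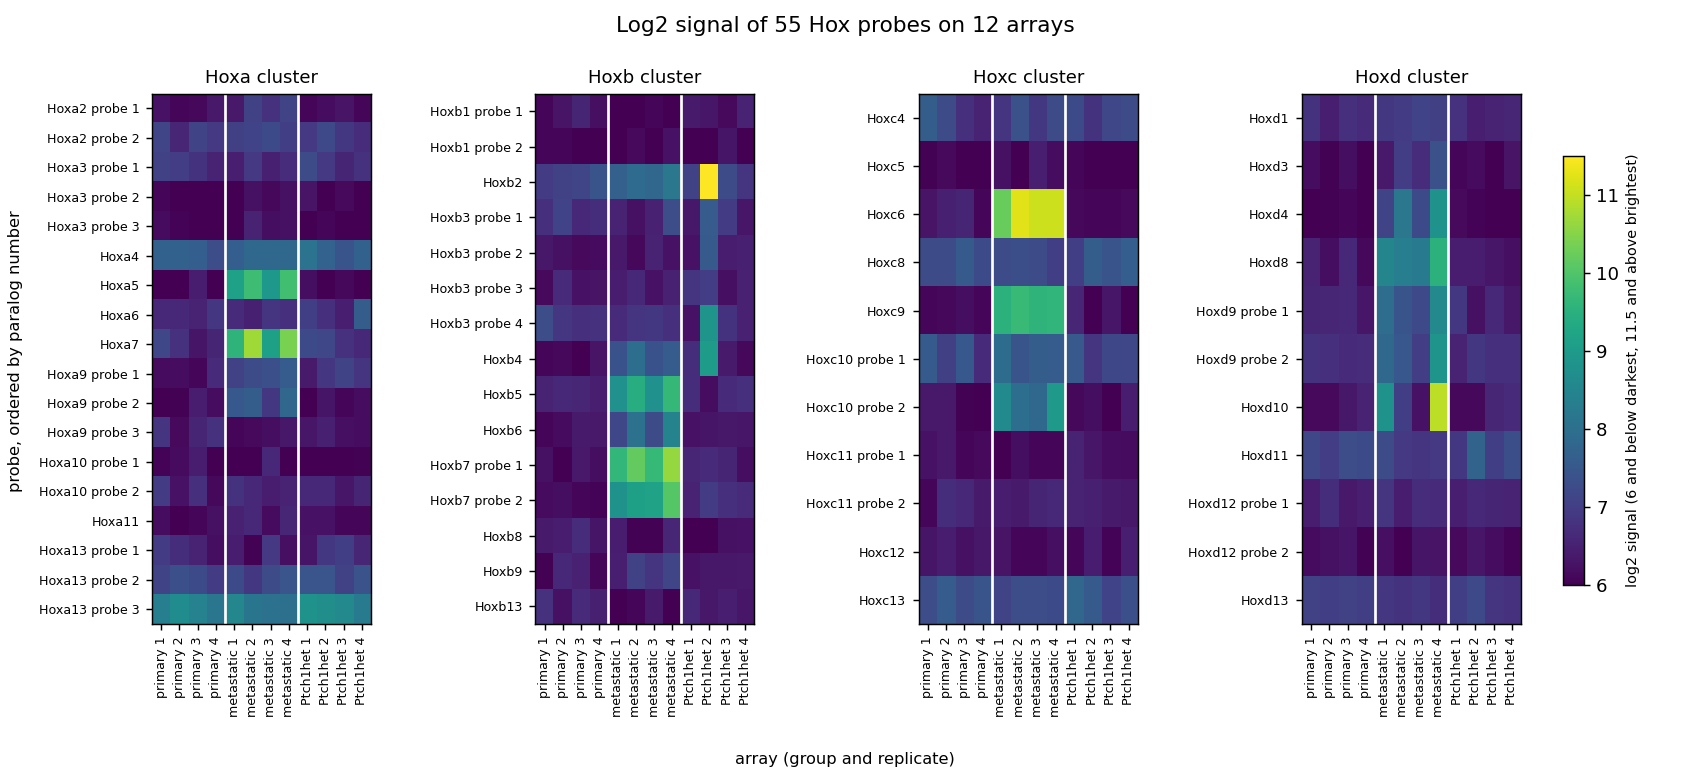
Log2 signal of 55 of the 57 Hox probes (rows, ordered by paralog number, 1 panel per cluster) on the 12 arrays (columns; white lines part A1G primary, A1G metastatic and Ptch1het). The brighter cells lie mainly in the 4 metastatic columns at middle paralog numbers, and the column of Ptch1het replicate 2 is bright at Hoxb2 (11.75).

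The differences were grouped along the paralog numbers. None of the 5 probes of paralog group 1 and none of the 3 of group 2 passed, and 1 of 8 did in group 3. In group 4 it was 1 of 4 probes, in group 5 it was 2 of 3, in group 6 it was 2 of 3, in group 7 it was 3 of 3, in group 8 it was 1 of 3 and in group 9 it was 4 of 7. Of the high numbers, 1 of 5 probes passed in group 10, 0 of 4 in group 11, 0 of 3 in group 12 and 0 of 6 in group 13. Put in ranges that were chosen after the values were seen, groups 4 to 8 had 9 of 16 probes higher with a median log2 difference of 1.67, group 9 had 4 of 7 with 1.07, groups 1 to 3 had 1 of 16 with 0.13 and groups 10 to 13 had 1 of 18 with -0.04. Across probes, which are not independent replicates, the Spearman correlation of paralog number with the log2 difference was -0.20 over all 57, -0.21 in Hoxa, 0.18 in Hoxb, -0.54 in Hoxc and -0.57 in Hoxd. The called probes thus lay mainly at middle numbers in each cluster.

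**Figure D2:**
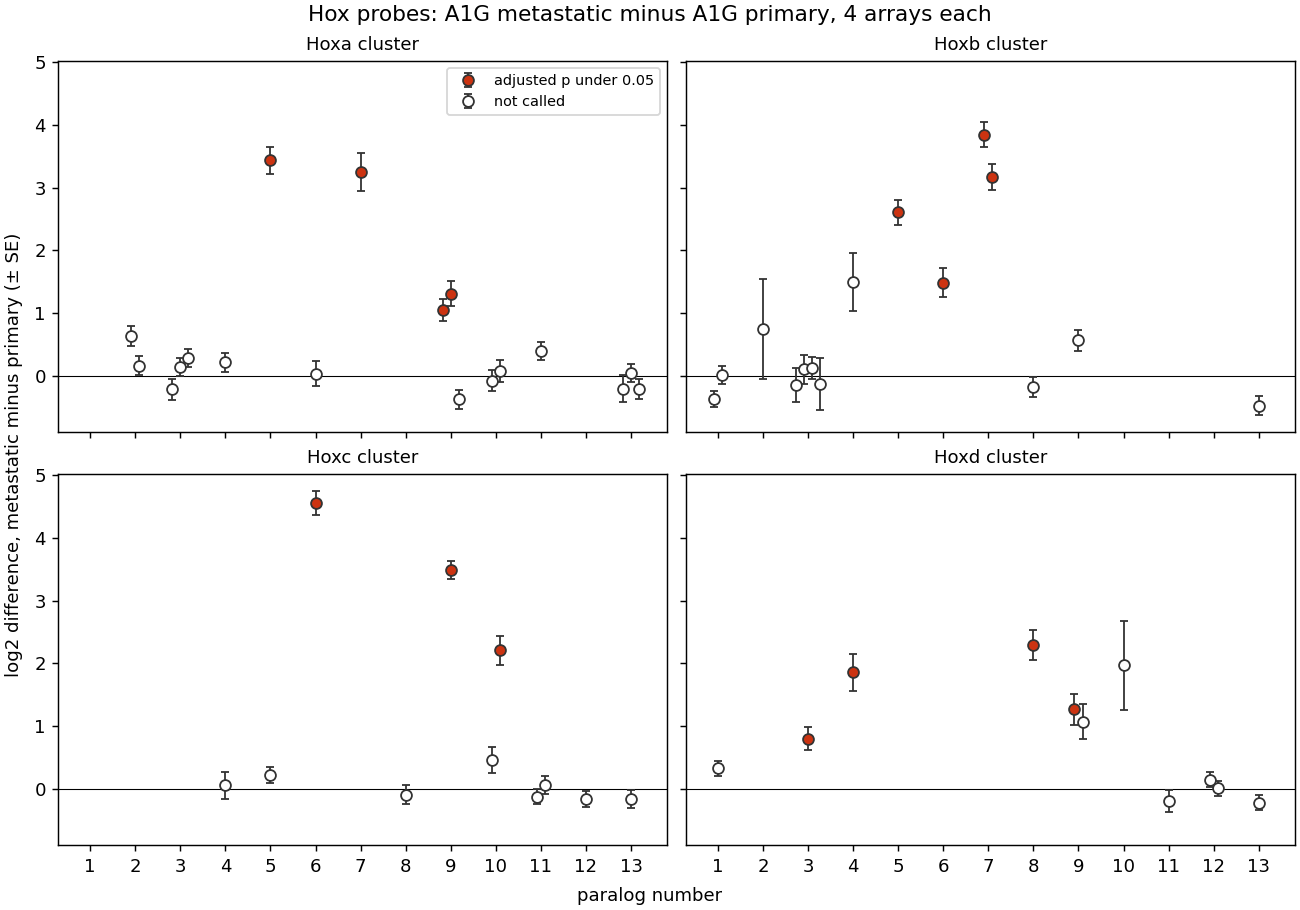
Log2 difference of A1G metastatic minus A1G primary (vertical axis, ± SE of the limma fit, 4 arrays each) by paralog number (horizontal axis), 1 panel per cluster and 1 point for each of 55 probes. Filled points passed at adjusted p under 0.05; of the 15, all but Hoxd3 and Hoxc10 probe 2 lie between paralog numbers 4 and 9.

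Hoxc6 and Hoxc9, whose products mark forelimb-level and thoracic motor neurons of the spinal cord among other trunk tissues, had the 2 largest differences of the Hoxc cluster. Hoxc6 read 6.29, 6.49, 6.58 and 6.08 in A1G primary replicates 1 to 4, 10.22, 11.26, 11.07 and 11.09 in metastatic and 6.13, 6.07, 6.11 and 6.14 in Ptch1het replicates. All 4 metastatic arrays stood above all 8 others, with replicate 1 the lowest of the 4. The log2 difference from primary was 4.55 (SE 0.20, limma adjusted p = 2.73e-08), at least 12.8-fold. Hoxc9 read 6.09, 6.12, 6.20 and 6.10 in primary, 9.54, 9.72, 9.57 and 9.63 in metastatic and 6.59, 5.96, 6.34 and 5.93 in Ptch1het tumours. Its metastatic values were the closest together of the 15 probes (SD 0.08), and the groups did not overlap. The difference was 3.49 (SE 0.14, limma adjusted p = 1.78e-08), at least 5.19-fold.

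Hoxc10, a gene of the lumbar level of the spinal cord and of the hindlimb, was the 1 called gene numbered above 9. Its probe 2 went from 6.16 ± 0.26 in primary to 8.37 ± 0.53 in metastatic tumours, a log2 difference of 2.21 (SE 0.23, limma adjusted p = 9.4e-05), at least 2.19-fold. Its probe 1 read 7.55, 7.03, 7.52 and 6.69 in primary, 7.95, 7.42, 7.62 and 7.61 in metastatic and 7.54, 6.83, 7.19 and 7.18 in Ptch1het tumours. There the metastatic array was the higher in all 4 same-numbered pairs, but the groups overlapped and the difference of 0.45 did not pass. The neighbours of Hoxc6 and Hoxc9 in the cluster did not pass: the difference was 0.05 for Hoxc4, 0.22 for Hoxc5 and -0.10 for Hoxc8. Hoxc8, which in the embryo is expressed between the levels of these 2 genes, read 7.25, 7.25, 7.56 and 7.24 in primary, 7.28, 7.32, 7.29 and 7.01 in metastatic and 7.02, 7.63, 7.44 and 7.64 in Ptch1het tumours, and its groups overlapped. Hoxc13, known for its part in hair and nail, read 7.27 to 7.61 in primary, 7.13 to 7.30 in metastatic and 7.10 to 7.82 in Ptch1het tumours. Both Hoxc11 probes and Hoxc12 were above background on 0 of 12 arrays.

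In the Hoxb cluster, both probes of Hoxb7, a gene of the thoracic level, had the largest differences. Probe 1 read 6.24, 5.95, 6.38 and 6.20 in primary, 9.63, 10.19, 9.70 and 10.63 in metastatic and 6.59, 6.65, 6.56 and 6.20 in Ptch1het tumours. Probe 2 read 6.16, 6.21, 6.09 and 6.05 in primary, 8.83, 9.13, 9.17 and 10.05 in metastatic and 6.53, 6.99, 6.75 and 6.66 in Ptch1het tumours. On both probes the metastatic arrays stood apart from all others, with replicate 4 the highest. The log2 differences were 3.84 (SE 0.20, limma adjusted p = 1.32e-07) and 3.17 (SE 0.21, limma adjusted p = 1.33e-06), at least 6.96-fold and 4.16-fold. Hoxb5, which acts in the shoulder girdle and in neural crest of the gut, went from 6.56 ± 0.07 to 9.17 ± 0.45 (limma adjusted p = 5.09e-06, at least 3.81-fold). Hoxb6 went from 6.26 ± 0.16 to 7.74 ± 0.63 (limma adjusted p = 0.00272, at least 1.41-fold).

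Hoxb4 and Hoxb2, genes of the hindbrain and neck levels, did not pass although the metastatic arrays stood above the primary arrays. Hoxb4 read 6.09, 6.12, 5.90 and 6.28 in primary, 7.38, 7.99, 7.38 and 7.61 in metastatic and 6.72, 9.01, 6.40 and 6.12 in Ptch1het tumours. Hoxb2 read 6.98, 7.07, 7.15 and 7.42 in primary, 7.68, 7.92, 7.83 and 8.18 in metastatic and 7.06, 11.75, 7.28 and 6.85 in Ptch1het tumours. In both, Ptch1het replicate 2 was the highest of all 12 arrays. The 3 groups share 1 estimate of spread in the fit: the metastatic minus primary difference was 1.49 for Hoxb4 (limma adjusted p = 0.137) and 0.75 for Hoxb2 (0.766) with that array, and the same differences had adjusted p = 0.000237 and 0.0151 without it. Hoxb3 probe 4, the brightest of the 4 probes of that gene, read 6.73 to 7.31 in primary, 6.67 to 6.89 in metastatic, and 6.26, 8.85, 6.80 and 6.51 in Ptch1het tumours, so replicate 2 was again the highest. Hoxb9 (difference 0.56, limma adjusted p = 0.123) passed only without metastatic replicate 1 (0.71, 0.0335). Hoxb8, between Hoxb7 and Hoxb9, was above background on 0 of 12 arrays (difference -0.18), as were both Hoxb1 probes and Hoxb13.

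In the Hoxa cluster the largest differences were those of Hoxa5, a regulator of the respiratory tract and of the neck-to-thorax skeleton, and Hoxa7, a gene of the thoracic vertebrae. Hoxa5 read 5.72, 5.89, 6.45 and 5.95 in primary, 9.16, 9.79, 8.94 and 9.85 in metastatic and 6.20, 5.71, 6.12 and 5.87 in Ptch1het tumours. The log2 difference was 3.43 (SE 0.22, limma adjusted p = 9.4e-07), at least 4.58-fold, with no overlap. Hoxa7 read 7.17, 6.77, 6.30 and 6.56 in primary, 9.58, 10.71, 9.14 and 10.39 in metastatic and 7.23, 7.17, 6.78 and 6.64 in Ptch1het tumours. The metastatic arrays again stood above all others, by 3.25 over primary (SE 0.30, limma adjusted p = 3.31e-05), at least 6.56-fold. Hoxa9, which acts in the trunk skeleton and in blood stem cells, was higher on probe 1 (6.28 ± 0.26 to 7.32 ± 0.22, limma adjusted p = 0.00458) and on probe 2 (6.16 ± 0.20 to 7.47 ± 0.41, limma adjusted p = 0.0018), by at least 1.06-fold and 1.17-fold. Its probe 3 did not pass (difference -0.38) and was above background on 0 of 12 arrays.

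Hoxa6, between Hoxa5 and Hoxa7, had a difference of 0.03 and was above background on 0 of 4 primary and 0 of 4 metastatic arrays. Hoxa4 read 7.72, 7.72, 7.64 and 7.31 in primary, 7.65, 7.85, 7.86 and 7.86 in metastatic and 8.10, 7.74, 7.42 and 7.70 in Ptch1het tumours. Hoxa13, a gene of the limb tip, hindgut and urogenital tract, read on probe 3 8.34, 8.68, 8.45 and 8.17 in primary, 8.54, 8.14, 8.06 and 8.02 in metastatic and 8.80, 8.73, 8.60 and 8.30 in Ptch1het tumours. For both the groups overlapped, and neither difference passed. Hoxa13 probe 2 read 6.98 to 7.34 in primary, 6.88 to 7.44 in metastatic and 7.07 to 7.45 in Ptch1het tumours, and probe 1 was above background on 0 of 12 arrays. None of the 3 probes passed (differences of -0.21, 0.04 and -0.22 for probes 1 to 3). Hoxa2 probe 1, from a gene that patterns the second branchial arch, had a difference of 0.63 (limma adjusted p = 0.0525) that passed without metastatic replicate 1 (0.78, 0.00684). Neither probe of Hoxa10, and not that of Hoxa11, was above background on any array.

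In the Hoxd cluster the 2 largest called differences were those of Hoxd8 and Hoxd4. Hoxd8 read 6.55, 6.19, 6.62 and 6.11 in primary, 8.50, 8.35, 8.24 and 9.54 in metastatic and 6.43, 6.43, 6.33 and 6.23 in Ptch1het tumours. The difference was 2.29 (SE 0.24, limma adjusted p = 8.79e-05), at least 2.67-fold, and the groups did not overlap. Hoxd4, which acts at the join of skull and neck, read 5.84, 6.03, 6.10 and 5.98 in primary, 7.12, 8.18, 7.24 and 8.83 in metastatic and 6.13, 6.06, 5.72 and 5.73 in Ptch1het tumours. All metastatic arrays were the higher, replicates 2 and 4 most so, and the difference was 1.85 (SE 0.30, limma adjusted p = 0.00301), at least 1.52-fold. Hoxd9 probe 1 went from 6.53 ± 0.13 to 7.80 ± 0.61 (limma adjusted p = 0.0122, at least 1.47-fold). Its probe 2 read 6.66 to 6.81 in primary, 7.85, 7.49, 7.002 and 8.85 in metastatic and 6.55 to 6.89 in Ptch1het tumours, without overlap. The difference of 1.07 for probe 2 had a limma adjusted p of 0.0676 in the fit of all 3 groups, of 0.0448 with the replicate block and only the 2 groups, and of 0.0109 without metastatic replicate 3. Hoxd3 had the smallest called difference, 0.80 (limma adjusted p = 0.0358), and was above background on 1 metastatic array; its call was lost without any 1 of the 4 primary arrays or without metastatic replicate 2 or 4 (highest adjusted p 0.118).

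Hoxd10, a gene of the lumbar spinal cord and hindlimb, divided the metastases most. It read 6.15, 6.14, 6.35 and 6.56 in primary, 8.83, 7.03, 6.27 and 10.94 in metastatic and 6.12, 6.11, 6.59 and 6.67 in Ptch1het tumours. Metastatic replicates 1 and 4 stood well above every other array, replicate 3 lay within the range of the primary tumours, and replicates 2 and 3 were not above background. The mean difference of 1.97 (SE 0.71) did not pass (limma adjusted p = 0.218). It was 2.63 (0.0456) without metastatic replicate 3, and 3.58 (0.0012) with metastatic replicates 1 and 4 only, the 2 whose genotype entry is worded as in the primary tumours. The same order of metastatic replicates (4 highest, then 1, 2 and 3) held in Hoxd8, both Hoxd9 probes and Hoxc10 probe 2. There the mean of replicates 1 and 4 exceeded that of 2 and 3 by 0.73, 0.95, 1.11 and 0.89, against 3.24 in Hoxd10. Hoxd11 read 6.998 to 7.30 in primary, 6.83 to 7.28 in metastatic and 6.90 to 7.75 in Ptch1het tumours. Both Hoxd12 probes were above background on 0 of 12 arrays, and Hoxd13, whose metastatic values lay below the primary ones without a call (difference -0.22, limma adjusted p = 0.432), was too.

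**Figure D3:**
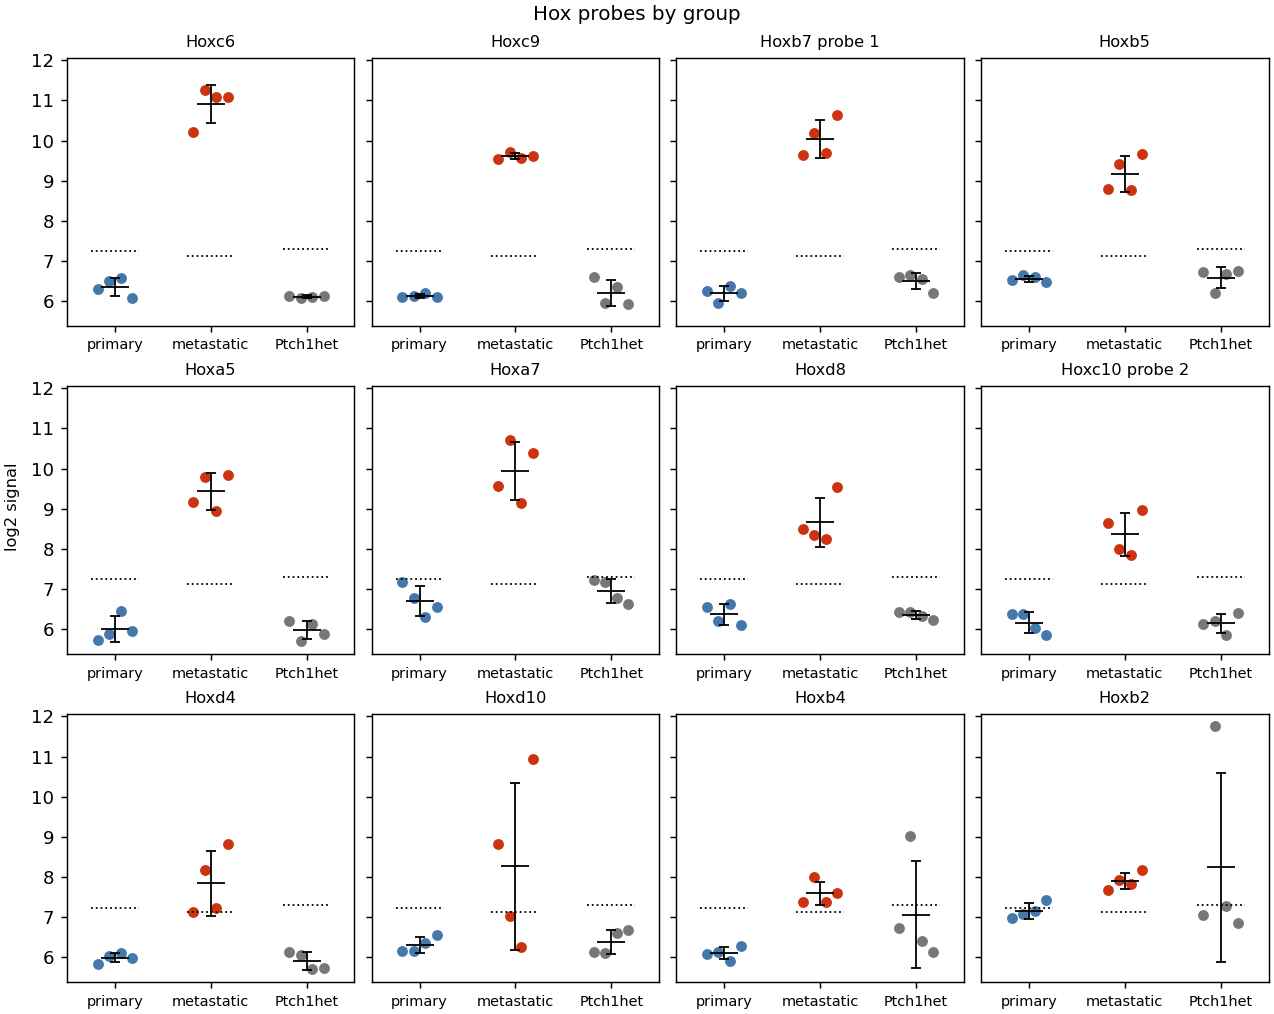
Log2 signal of 12 Hox probes in each array (points), with the mean and SD of each group of 4 (bars) and the mean background threshold of the group (dotted). Metastatic tumours lie apart from the others in the upper 2 rows, from Hoxc6 to Hoxc10 probe 2; in Hoxd10 they range from 6.27 to 10.94, and in Hoxb4 and Hoxb2 the highest point is 1 Ptch1het array (9.01 and 11.75).

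The metastases differed from each other over the 15 called probes in an order that was only partly common. Metastatic replicate 4 was the highest of the 4 arrays in 12 probes and replicate 2 in 3. The lowest was replicate 1 in 8 probes and replicate 3 in 7. Replicate 1 lay above replicate 2 in Hoxd8 (8.50 and 8.35), Hoxd9 probe 1 (7.96 and 7.43) and Hoxc10 probe 2 (8.64 and 7.99). It lay below replicate 2 in the other called probes. The mean deviation from the metastatic mean was 0.54 in replicate 4, 0.11 in replicate 2, -0.29 in replicate 1 and -0.36 in replicate 3. The probes were chosen for their mean over these 4 arrays, so this order is a description.

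A1G primary and Ptch1het tumours, which differ in genotype, were compared next. No Hox probe was called in either direction (0 of 57, limma; 0.00221% of all probes were higher in A1G primary and 0.011% lower). Without adjustment, Hoxb8 was higher in A1G primary at p under 0.05, and Hoxb7 probe 2 and Hoxa9 probe 1 lower; 4.84% of all probes were higher and 5.3% lower at that p, so these counts do not exceed the share over all probes. Hoxb8 (difference 0.38, limma adjusted p = 0.446) and Hoxb7 probe 2 (-0.60, limma adjusted p = 0.371) were also the 2 whose groups did not overlap; 2.11% of all probes did not overlap with A1G primary higher and 2.9% with it lower. Neither was above background on any array of either group. The largest differences in size were those of Hoxb2 (-1.08) and Hoxb4 (-0.96), and in both the Ptch1het mean includes the high value of replicate 2. The median over Hox probes was -0.03 and over all probes -0.01.

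Metastatic tumours were also set against Ptch1het tumours, a comparison that shares the metastatic arrays with the first and in which genotype differs too. There 16 Hox probes were higher and 0 lower (limma; 2.95% and 1.6% of all probes), and 24 were higher and 3 lower without adjustment (8.4% and 10.6% of all probes). Groups did not overlap in 18 Hox probes with metastatic tumours higher (4.94% of all probes) and 1 with them lower (5.32% of all). The differences were 4.80 for Hoxc6, 3.41 for Hoxc9, 3.54 and 2.56 for the Hoxb7 probes, 3.46 for Hoxa5, 3.00 for Hoxa7, 2.30 for Hoxd8 and 1.93 for Hoxd4. Called here but not against A1G primary were Hoxa2 probe 1 (0.68, limma adjusted p = 0.0265) and Hoxd9 probe 2 (1.07, 0.0479), and Hoxa9 probe 1 (0.51, 0.123) was not called. The call of Hoxa2 probe 1 was lost without metastatic replicate 2 or 4 or Ptch1het replicate 1 or 4 (highest adjusted p 0.0938). That of Hoxd9 probe 2 was lost without any 1 array other than metastatic replicates 3 and 4 (highest 0.112). That of Hoxd3 (0.75, 0.0373) was lost without metastatic replicate 2 or 4, A1G primary replicate 2 or 3, or Ptch1het replicate 1, 2 or 3 (highest 0.114). Without Ptch1het replicate 2 the difference of Hoxb2 turned from -0.34 to 0.84 (limma adjusted p = 0.0111), and Hoxb4 passed (1.18, 0.00274 against 0.53, 0.61).

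Cofactors, regulators and neighbours of Hox genes and anterior brain factors were counted in 5 lists for metastatic against primary tumours, beside the 2.27% of all probes that were higher and the 0.38% that were lower. Of 9 TALE-class cofactors, homeodomain partners that bind DNA with Hox proteins, 1 was higher and 1 lower, with a median difference of -0.27. Meis2 read 7.61, 6.75, 6.94 and 7.03 in primary and 8.18, 8.83, 7.98 and 9.996 in metastatic tumours (difference 1.66, limma adjusted p = 0.023). Pbx3 read 8.97, 9.70, 8.83 and 9.58 in primary and 8.84, 8.24, 8.51 and 8.04 in metastatic tumours (-0.86, limma adjusted p = 0.0465). The groups of Pbx3 overlapped at metastatic replicate 1, and its adjusted p was 0.0733 with the replicate number as a block. The call of Meis2 was lost without A1G primary replicate 2, 3 or 4 or metastatic replicate 2 (highest 0.0831), and that of Pbx3 without any 1 array other than A1G primary replicates 1 and 3 and metastatic replicate 1 (highest 0.153). Meis1 read 12.94 to 13.75 over these 8 arrays and did not pass.

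Of 16 upstream regulators, among them Cdx factors and genes of retinoic acid, 1 was higher and 0 lower (median 0.05). Crabp2, which carries retinoic acid to its receptors, read 6.94, 6.90, 6.91 and 7.17 in primary and 8.05, 7.52, 8.15 and 7.56 in metastatic tumours (difference 0.84, limma adjusted p = 0.00944). Aldh1a2, which makes retinoic acid, read 7.45 to 8.10 in primary and 7.92 to 9.12 in metastatic tumours and did not pass (limma adjusted p = 0.145). Cdx2, Cdx4, Cyp26a1, Cyp26b1, Rara and Wnt3a were above background on 0 of 12 arrays. Of 22 Polycomb and trithorax proteins, which keep Hox genes silent or active, 0 passed in either direction (median -0.12); Bmi1 read 10.46 to 10.87 in primary and 8.94 to 10.28 in metastatic tumours (-0.93, limma adjusted p = 0.0643). Of 12 factors of the midbrain and anterior hindbrain 0 passed (median -0.10), and En2 read 12.46 to 13.04 in primary and 11.96 to 12.70 in metastatic tumours. Of 24 measured genes beside the Hox clusters, 1 was higher and 0 lower (median -0.03). That gene was Skap2, next to the Hoxa cluster, at 9.27 to 9.78 in primary and 10.15 to 10.70 in metastatic tumours (0.96, limma adjusted p = 0.0308), a call lost without A1G primary replicate 1, 2 or 4 or metastatic replicate 2 or 4 (highest 0.112).

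Markers of several trunk tissues were also higher in metastatic than in primary tumours, and their part in the Hox differences was not tested. Over all probes 2.27% were higher and 0.38% lower, with a median difference of -0.04, and these values apply to every marker list below. A list gene stands as its brightest probe, a choice not made for all probes. Of 15 measured markers of dorsal root ganglion sensory neurons 10 were higher in metastatic than in primary tumours and 0 lower, with a median of 2.87. Their list mean was 6.61 to 7.12 in A1G primary, 9.11 to 10.07 in metastatic and 6.88 to 7.52 in Ptch1het tumours; Drgx and Mrgprd were above background on 0 of 12 arrays. Prph, the filament protein peripherin, went from a range of 6.45 to 7.31 to one of 11.82 to 13.11 (limma adjusted p = 6.43e-08). Of 8 Schwann cell markers 7 were higher and 0 lower (median 3.33). Their list mean was 7.40 to 7.63 in A1G primary, 10.34 to 10.73 in metastatic and 7.47 to 7.75 in Ptch1het tumours. Prx, a protein of peripheral myelin, went from 6.29 to 6.65 in primary to 9.37 to 9.63 in metastatic tumours (limma adjusted p = 1.54e-08).

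Of 10 skeletal muscle markers 6 were higher and 0 lower (median 3.13), a count that was 2 to 9 with 1 array left out. It was 3 or below without A1G primary replicate 1, 2 or 3 or metastatic replicate 1 or 2, and it was 1 with a robust eBayes trend, 0 with metastatic replicates 2 and 3 only and 7 with the replicate block. Their list mean was 11.33, 11.99, 7.33 and 9.82 in metastatic replicates 1 to 4, 6.73 to 7.79 in A1G primary and 6.83 to 7.24 in Ptch1het tumours. For muscle, metastatic replicate 3 (7.33) lay below A1G primary replicate 4 (7.79). It lay above the other primary arrays (6.73 to 6.81) and above every Ptch1het array. The same array read 11.07 for Hoxc6 and 9.57 for Hoxc9, and the part of muscle in the Hox differences was not tested. Of 10 fibroblast and meninges markers 6 were higher and 0 lower (median 2.41). Their list mean was 7.95 to 8.96 in A1G primary, 10.65 to 10.90 in metastatic and 8.44 to 8.86 in Ptch1het tumours; Tbx18 was above background on 0 of 12 arrays. In metastatic replicates 1 to 4 the list mean was 10.74, 10.65, 10.84 and 10.90 for fibroblasts. For sensory neurons it was 9.70, 10.07, 9.52 and 9.11. Over the 15 called Hox probes, replicate 4 was the highest in 12 and replicate 2 in 3. The lowest was replicate 1 in 8 probes and replicate 3 in 7. A link between these orders was not tested.

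Of the markers of the spinal cord itself, 1 passed in metastatic against primary tumours. Of 7 spinal motor neuron markers 1 was higher (Isl2, difference 2.02, limma adjusted p = 0.00139) and 0 lower (median 0.15). Isl2 is also known from sensory neurons. Mnx1 and Lhx4 were above background on 0 of 12 arrays. Of the 7 markers, 5 were above background on 0 of 4 A1G primary arrays. That number was 2 in metastatic and 4 in Ptch1het tumours. The list mean, with Isl2 in it, was 6.53 to 6.92 in A1G primary, 6.88 to 7.22 in metastatic and 6.80 to 7.13 in Ptch1het tumours. In this mean the metastatic array was the higher in all 4 same-numbered pairs. The mean without Isl2 was not computed, so a rise of the other members is not shown by it. Of 9 spinal interneuron markers 0 passed (median 0.00), their list mean was 7.62 to 7.70, 7.45 to 7.62 and 7.53 to 7.61 in the same order with the metastatic array the lower in all 4 pairs, and Lbx1, Lhx5, Slc6a5 and Sim1 were above background on 0 of 12 arrays.

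Of 9 bone and cartilage markers 0 passed (median 0.11), or 1 with the replicate block, with list means of 6.80 to 6.92, 6.95 to 7.14 and 6.82 to 7.07. Sp7, Runx2, Matn1 and Sost were above background on 0 of 12 arrays. Of 8 measured blood markers 1 was higher (2 with the block), Cd3g of T cells (1.10, limma adjusted p = 0.0091), with list means of 8.93 to 9.68, 9.41 to 10.28 and 8.77 to 9.61; Ptprc was above background on 0 of 12 arrays. Of 11 granule neuron lineage markers 0 passed (median -0.13), and 1 was lower with the block. Their list mean was 9.35 to 9.44 in A1G primary, 9.02 to 9.26 in metastatic and 9.19 to 9.39 in Ptch1het tumours. The metastatic arrays lay below the primary arrays in this mean. Against Ptch1het tumours, 2.95% of all probes were higher in metastatic tumours and 1.6% lower. There 9 sensory neuron markers were higher and 1 lower, and 1 motor neuron marker was higher and 1 lower. Of Schwann cell markers 6 were higher, of skeletal muscle 7 and of fibroblast and meninges 5, with 0 lower. Of spinal interneuron, bone and blood markers 1 each was higher and 0 lower. Of granule neuron lineage markers 0 were higher and 1 lower.

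**Figure D4:**
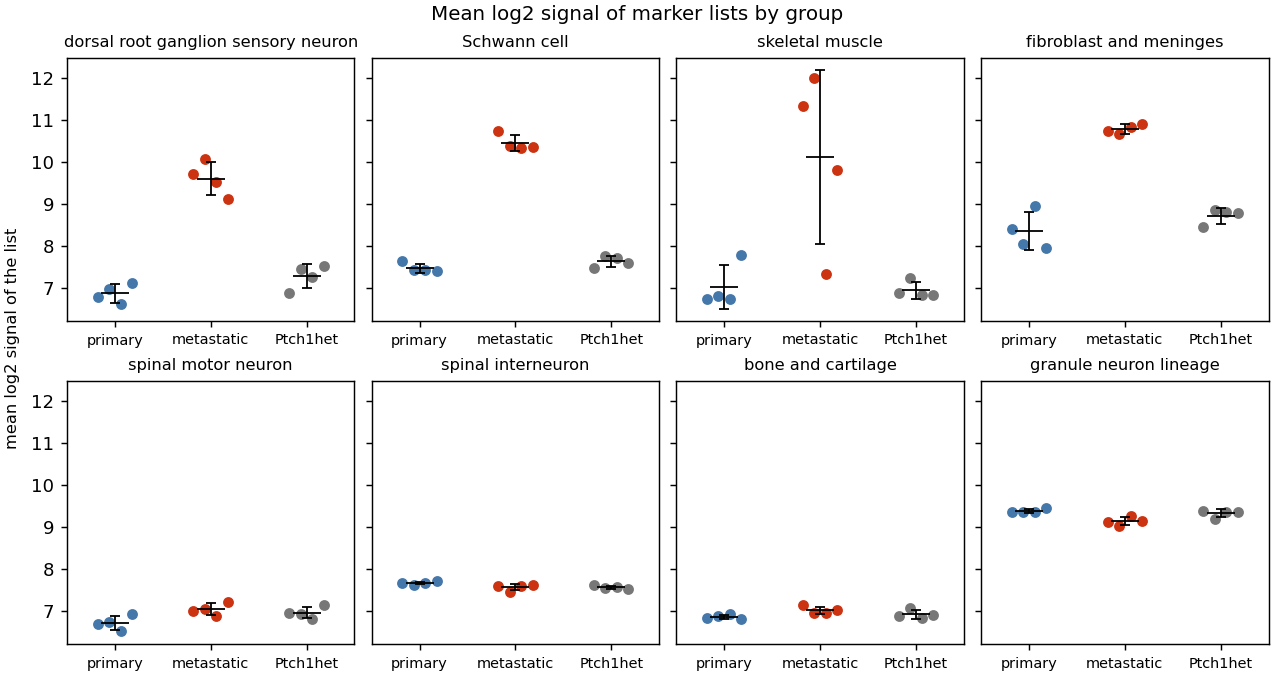
Mean log2 signal of 8 marker lists in each array (points), with the mean and SD of each group of 4 (bars). Sensory neuron, Schwann cell and fibroblast lists are higher in all 4 metastatic arrays than in the 8 others; skeletal muscle spans 7.33 to 11.99 among metastatic arrays, and the spinal, bone and granule neuron lists have smaller differences.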

How the data were processed

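Tumours were homogenized in Trizol and DNase-treated total RNA was hybridised to Illumina BeadChips, per the labels' protocols. The deposited values are probe intensities on a linear scale for 45281 probes on 12 arrays. Their medians (186.957 to 187.09) show that the authors had normalized between arrays, and no source used here names the method. The medians do not show whether background had been subtracted. The 24 per-array columns of the second deposited table, signals and detection p-values, are named by chip position, match no label and were not used; only its probe annotation was.

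Intensities were corrected by normexp (offset 50), quantile normalized and taken to log2. limma 3.58.1 (R 4.3.3; lmFit, eBayes; 9 residual and 4.44 prior degrees of freedom) was fitted to all probes without a filter, so every Hox probe was tested. The values have no depth; their precision is limited by 4 arrays per group and by dim probes. The fit was tested on simulated data. List genes were matched to current symbols (27740 probes current, 8037 through a synonym, 9504 kept), and the probe with the highest mean stood for a list gene. Promoters and motifs were read with Python 3.11.15.

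Members, lists and tests were chosen with earlier results of these data known. Values in every array are given for the 2 called Hox probes with the largest difference in each cluster, for up to 3 uncalled ones per cluster in order of mean signal, and for up to 4 members of a list with the smallest p, besides members not above background; other values are means or ranges. Some genes that met these rules are not reported here by name. Replicate numbers were checked as pairs after removal of group means. Same-numbered primary and metastatic arrays correlated at 0.35, 0.13, 0.15 and 0.22, each best with its own number. Against Ptch1het arrays, A1G primary replicates 3 (0.06) and 4 (0.27) were also best with their own number, and replicates 1 and 2 were not. Of metastatic arrays against Ptch1het, only replicate 2 (0.03) was. The labels name no shared animals, so whether the numbers pair the samples was not settled. The main fit had no block. Alternatives were the normalization, the offset, filters on signal, 1 probe per gene, robust eBayes, only the groups compared, the replicate block, subsets of the metastases, and each array left out; 2 settings, the block with only 2 groups and metastatic replicates 2 and 3 only, were added after the data were seen.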

Additional observations from a re-analysis of the deposited data

Results flagged for a closer look

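Single arrays far from the other 3 of their group, by Dixon's test for 4 samples (95% level), were found in 9 of 171 sets of Hox values and 7 of 42 sets of list means; chance gives about 1 in 20. The one with the widest gap was Hoxb2 in Ptch1het replicate 2, at 11.75 (log2) against 7.28 in the next highest array of that group. The others among Hox probes were low values of Hoxa4 in metastatic replicate 1 (7.65), Hoxb5 in Ptch1het replicate 2 (6.19), Hoxa13 probe 2 in Ptch1het replicate 3 (7.07) and Hoxc8 in metastatic replicate 4 (7.01), and high values of Hoxa6 (6.88) and Hoxa9 probe 1 (6.67) in A1G primary replicate 4, Hoxa10 probe 1 in metastatic replicate 3 (6.61) and Hoxc8 in A1G primary replicate 3 (7.56).

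Among list means these were the TALE cofactors in A1G primary replicate 2 (9.56), Schwann cell markers in A1G primary replicate 1 (7.63) and in metastatic replicate 1 (10.73), skeletal muscle in A1G primary replicate 4 (7.79) and Ptch1het replicate 2 (7.24), and the granule neuron lineage, high in A1G primary replicate 4 (9.44) and low in Ptch1het replicate 2 (9.19).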

How the results depend on the processing

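Under 24 other settings, 12 of them leaving out 1 array, the number of Hox probes higher in metastatic than in A1G primary tumours was 10 to 17 (14 to 17 with 1 array left out), against 15, and 0 were lower in each. It was 15 with the replicate number as a block, and 17 with the block and only the 2 groups. Of the 15 probes, 12 were called in every setting that tested them. The call of Hoxd3 was lost in 10 settings (adjusted p up to 0.206), that of Hoxa9 probe 1 with metastatic replicates 1 and 4 only (0.0569) and that of Hoxd9 probe 1 with metastatic replicates 2 and 3 only (0.0643). Against Ptch1het, the 16 higher probes became 10 when probes had to be above background on at least 4 arrays (20 Hox probes tested), 10 with 1 probe per gene (21 tested), and 13 to 17 with 1 array left out; the block gave 16, and 12 with only the 2 groups. There 1 probe was lower with a normexp offset of 16, Hoxb1 probe 1 (-0.84, adjusted p = 0.0378). The difference of Hoxb2 from Ptch1het turned from -0.34 to 0.84 without Ptch1het replicate 2, and was -0.80 to 0.84 over all single arrays left out. A1G primary against Ptch1het gave 0 Hox calls in every setting (limma). The cause of these changes was not tested, apart from the fewer probes tested under the filters. The replicate block in the fit of all groups changed no Hox call. With the block and only the 2 groups, Hoxb2 (0.00853), Hoxb4 (0.000502) and Hoxd9 probe 2 (0.0448) were gained and Hoxd3 (0.0641) lost against A1G primary. Against Ptch1het, both Hoxd9 probes, Hoxd3 and Hoxa2 probe 1 were lost with that setting (limma adjusted p 0.0569 to 0.132). In that comparison most metastatic arrays did not correlate best with their own number. Many Hox probes lay at background in every array, so small differences of those probes could not be seen.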

Other observations

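Ptch1het replicate 2, which stood apart in Hoxb2, was set against the highest of the other 11 arrays for every probe; the genes named here were chosen after their values were seen. The largest excess was that of the 2 probes of Ren1, the gene of renin, at 7.74 and 5.30 (log2). Hoxb2 came next with 3.58 and ranked 3 of 45281 probes. Hoxb3 probe 4 (1.54, rank 14), Hoxb4 (1.03, rank 53) and Hoxb3 probe 2 (1.00, rank 61) stood above all other arrays too. Hoxb2, Hoxb3 and Hoxb4 are neighbours towards the anterior end of the Hoxb cluster.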
